A study of Sorghum bicolor with 24 samples.

Results

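The experiment set 2 ways of putting a sorghum seedling under stress against each other in the shoot: abscisic acid (ABA), the hormone that plants make when water is short, and polyethylene glycol (PEG), a polymer too large to enter cells that draws water out of them and so causes osmotic stress at the roots. For each gene, the effect of ABA against its own NaOH control was set against the effect of PEG against its own H2O control, both on the log2 scale, and the difference between the effects, called the difference below, was tested as an interaction. All 12 shoot libraries of the 24 in the series enter this comparison. They are RNA-Seq libraries of the inbred line BTx623, grown in hydroponics and treated from day 8 for 27 h, and they form 4 groups of 3: 20 μM ABA dissolved in NaOH, the NaOH control, 20% PEG-8000 and the H2O control. Each library held RNA pooled from 3 groups of 10 plants, so a library averages many seedlings. Replicate numbers 1, 2 and 3 stand for separate hydroponic experiments, and roots of the same plants gave the other 12 libraries. No mutant or transgenic line was used.

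As background, ABA closes stomata, slows growth and switches on genes for protective proteins through a core of receptors, phosphatases and kinases. Osmotic stress raises the plant's own ABA, but it also acts through routes that do not need the hormone, and it lowers the turgor that drives cell expansion. Dehydrins and other late embryogenesis abundant (LEA) proteins, aquaporins and sugars of the galactinol and trehalose families are the classical protective genes of water shortage. Expansins loosen the cell wall and are the classical genes of cell expansion. Genes that respond to the hormone alone, to the stress alone or to both in opposite directions are separated by the interaction, which neither effect alone shows.

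With all libraries, 405 of 22667 genes tested (1.79%) differed between the treatments. The ABA effect was above the PEG effect for 169 of them (0.746% of the genes tested) and below it for 236 (1.04%). Without a fold cutoff 586 were called, 318 above and 268 below, so which direction held more genes depends on the cutoff given next. A gene was called when edgeR's quasi-likelihood test gave an adjusted p under 0.05 and the difference was at least 1 on the log2 scale in either direction, and the same thresholds were used for each effect alone. The median difference was 1.56 among the 169 and −2.18 among the 236, and −0.02 over all genes tested. For 403 of the 405 genes the difference had the same sign in each of the 3 replicate numbers. The genes were called on this difference in these libraries, so such agreement follows largely from the call and adds no support.

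Most of these genes passed the test for 1 treatment and not for the other, which does not show that the other had no effect. Of the 236 genes with the ABA effect below, 117 passed the test for a fall with ABA and not for any change with PEG, 61 for a rise with PEG and not with ABA, and 14 fell with ABA and rose with PEG. A further 9 fell with both, 5 rose with both, and 30 passed for neither effect alone. Of the 169 genes with the ABA effect above, 79 passed for a rise with ABA and not with PEG, 38 for a fall with PEG and not with ABA, 2 rose with ABA and fell with PEG, 5 rose with both, and 45 passed for neither alone. Over all genes tested, 10.0% were called with ABA (4.16% rose, 5.85% fell) and 6.58% with PEG (3.94% rose, 2.65% fell). Passing for 1 treatment and not for the other was not itself the test: each of these genes was called on the difference.

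**Figure D1:**
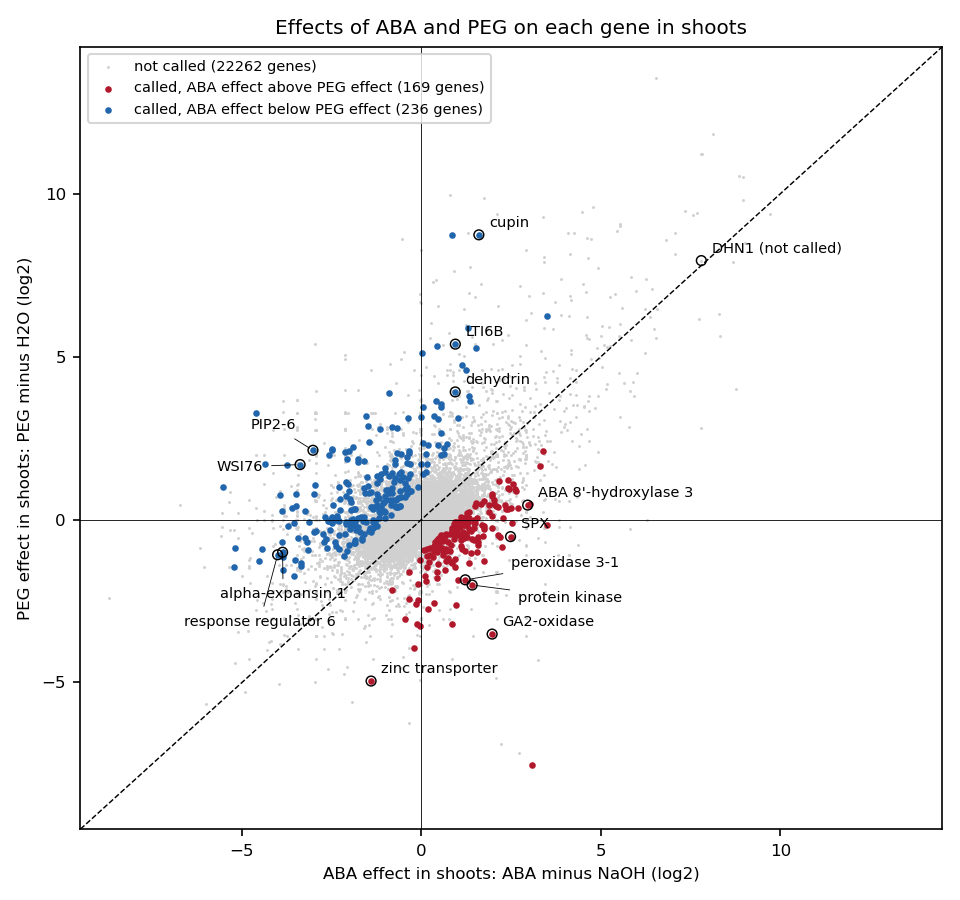
Effect of ABA against NaOH (horizontal axis, log2) and of PEG against H2O (vertical axis, log2) for each gene tested in shoots, from 3 libraries per group. Coloured points are the 169 genes called with the ABA effect above the PEG effect and the 236 called with it below, and a gene on the diagonal had equal effects of both.

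The H2O control of replicate 2 had the largest mean absolute deviation from its group mean among the shoot libraries, 0.376 on the log2 scale over genes. H2O replicate 1 was close to it at 0.331, and the others were at 0.170 to 0.288. Deviations of H2O replicate 2 correlated with those of replicate 2 of the other groups, at 0.560 for NaOH, 0.510 for PEG and 0.225 for ABA. Leaving out H2O replicate 2 alone is thus unbalanced over the replicate numbers. Without H2O replicate 2, 1918 of 22885 genes (8.38%) were called, 385 above (1.68%) and 1533 below (6.7%), so the count depends on this library. Of the 405 genes, 395 were also called without it in the same direction, 163 above and 232 below. Fitting the replicate number as a block, with all libraries, called 1125 genes (4.96%), 367 above (1.62%) and 758 below (3.34%), which included 401 of the 405. In a fit of the 12 shoot libraries alone 158 genes (0.779%) were called, 139 of them among the 405. When each of the 12 shoot libraries was left out in turn, 155 of the 405 were called every time. A direct contrast of the ABA with the PEG libraries, which is part of the difference and shares its treated libraries, called 1208 genes (5.33%). The NaOH and H2O controls differed for 0 genes by edgeR and 0 by DESeq2, with 567 genes (2.50%) at an unadjusted p under 0.05. In the median called gene the treated libraries contributed 1.69 to the size of the difference and the controls 0.17, and the control part was the larger in 9 of 405.

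Reads per library ranged from 13753888 to 22568469 in shoots. Values for single genes are normalized reads, that is, reads scaled to a mean library of 18009855 reads, and 3 values after a group's name stand in the order of the replicate numbers. A library is named below by its group and replicate number, as in ABA 1. The summed level of the photosynthetic marker genes was 52487 to 61102 RPM (reads in a library scaled to 1000000) in the NaOH libraries, 20287 to 25285 with ABA, 52616 to 54768 in the H2O libraries and 27241 to 34665 with PEG, and 8.13 to 49.1 in roots, so every library labelled shoot carried it. The base-calling software was version V1.6 for replicate 3 of each shoot group and for NaOH replicate 2 and V1.5 for the others, and 425 genes were called with the version as a term. Function descriptions were at hand for 3756 of the genes tested, taken from the study's lists of genes differentially expressed in these same libraries. In these lists the shoot response to ABA is complete and that to PEG is not. A gene group below therefore holds only members that the study called in shoots or roots, not a whole family. Counts of rises, falls and calls in a group follow partly from that choice. Descriptions covered 75 of the 79 genes with a rise with ABA and no call with PEG. Of the 38 with a fall with PEG and no call with ABA, they covered 11. Among the described genes 245 (6.52%) were called, 104 above (2.77%) and 141 below (3.75%). Counts of a gene group are read against these percentages, and the median difference of the described genes was −0.20.

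Among genes for water transport and protection, the ABA effect was below the PEG effect for an aquaporin, for WSI76, for a dehydrin, for a pair of LTI6B genes and for a cupin. The aquaporin, a protein that lets water through the plasma membrane, is described as PIP2-6 (Sb02g010830; sbi1 assembly, chromosome 2, 17037274 to 17038686). For PIP2-6, normalized reads were 149, 399.7 and 117 in the NaOH libraries, 20.0, 24.5 and 35.5 with ABA, 26.9, 168 and 74.3 in the H2O libraries and 426, 365 and 397 with PEG. All ABA libraries lay below their controls and all PEG libraries above theirs. Its ABA effect of −3.02 and its PEG effect of 2.12 both passed the test, and the difference was −5.15 (SE 0.79, adjusted p 0.0016), or −5.92 (adjusted p 0.00041) without H2O replicate 2. The list holds 4 plasma membrane aquaporins with differences from −5.15 to −1.97. Among these, PIP2-6 was the 1 called, 2 were called without H2O replicate 2 and 3 with the replicate block. Of all 14 aquaporins, 1 was called below with all libraries, and with the block 4 below and 1 above. The aquaporin with the most reads per exon length, NIP2-1 (Sb04g028020), a channel of the family that carries silicon in rice, differed the other way, at 1.12 (SE 0.37, adjusted p 0.12), which did not pass with all libraries but did without H2O replicate 2, at 1.4 (adjusted p 0.0077), and with the block, at 1.14 (adjusted p 0.021). In whole shoots, a change in the share of a cell type and a change in RNA per cell cannot be told apart, here or in any gene group below.

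The same opposite directions were measured for WSI76 (Sb02g043450; chromosome 2, 77274759 to 77276418), a transcript first described in water-stressed rice whose product resembles galactinol synthase, the enzyme that starts the synthesis of raffinose sugars. For WSI76, normalized reads were 127, 373 and 142 in the NaOH libraries, 20.0, 25.9 and 16.8 with ABA, 173, 104 and 245 in the H2O libraries and 710.3, 295 and 682 with PEG. Every ABA library was below every other shoot library, and every PEG library was above the H2O libraries. WSI76 fell with ABA (−3.38) and rose with PEG (1.69), a difference of −5.07 (SE 0.77, adjusted p 0.0014). A second gene of this chemistry, galactinol synthase 3 (Sb01g037090; chromosome 1, 60639660 to 60641438), moved less. Its normalized reads were 1824, 2237 and 2339 in the NaOH libraries, 1666, 1581 and 1589.9 with ABA, 1685, 1597 and 2555 in the H2O libraries and 3944, 2823 and 4867 with PEG. The PEG libraries were all above both control groups, and the ABA libraries were all below their NaOH controls. Neither effect alone passed, at −0.40 with ABA and 0.99 with PEG, and the difference of −1.4 (SE 0.36, adjusted p 0.040) was close to the threshold and was lost without any 1 of ABA 1, 2 or 3, H2O 1, NaOH 2 or 3 or PEG 1 or 3 (adjusted p 0.068 to 0.10, differences −1.20 to −1.42). Of the 6 genes for compatible solutes it was the 1 called, while betaine aldehyde dehydrogenase (Sb07g020650), which makes glycine betaine and was the most abundant of them per exon length, differed by 0.58 (SE 0.16, adjusted p 0.057).

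The list of LEA and dehydrin genes, which holds WSI76 by its description, has 7 members, each called by the study in shoots or roots. All 7 rose with PEG, with a median PEG effect of 6.68, while 3 rose and 1 fell with ABA, with a median ABA effect of 3.71. All 7 differences were negative, with a median of −2.97, and 2 were called, WSI76 and the dehydrin Sb04g032250 (chromosome 4, 62251614 to 62253087). Dehydrins are flexible hydrophilic proteins that build up in drying cells. For this dehydrin, normalized reads were 431, 1167 and 572 in the NaOH libraries, 1351, 1531 and 1297 with ABA, 268, 1051 and 379 in the H2O libraries and 9753, 5899 and 9995 with PEG. ABA libraries lay above their controls, and PEG libraries above all other shoot libraries. The rise with PEG passed (3.92), the ABA effect was 0.94 and did not, and the difference was −2.98 (SE 0.57, adjusted p 0.0090). The dehydrin DHN1 (Sb09g018420), the most abundant LEA gene per exon length, stands as the contrast. For DHN1, normalized reads were 53.5, 103 and 38.9 in the NaOH libraries, 5809, 28353 and 9861 with ABA, 21.9, 103 and 57.4 in the H2O libraries and 11503, 20968 and 13104 with PEG. ABA and PEG libraries overlapped, far above both controls, and DHN1 rose with each treatment (ABA 7.80, PEG 7.95) with a difference of −0.15 (SE 0.72, adjusted p 0.96).

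A pair of neighbouring genes described as the hydrophobic protein LTI6B, a small membrane protein known from cold-treated rice, rose with PEG and did not pass with ABA. For Sb09g003060 (chromosome 9, 3346183 to 3346658), normalized reads were 23.4, 20.4 and 8.24 in the NaOH libraries, 42.8, 36.0 and 21.5 with ABA, 15.2, 16.6 and 14.6 in the H2O libraries and 820.4, 372 and 754 with PEG. Every PEG library was far above all other shoot libraries, and ABA and NaOH libraries overlapped. Its difference was −4.44 (SE 0.74, adjusted p 0.0033), from an ABA effect of 0.94 and a PEG effect of 5.38. The neighbour Sb09g003050, named after its values were seen, differed by −2.30 (SE 0.48, adjusted p 0.014). Reads with more than 1 match were left out by the authors, so neighbouring copies of this kind may each be undercounted. A cupin family gene (Sb01g043980; chromosome 1, 67102691 to 67105356), of a family that includes seed storage proteins, was near 0 except with PEG. For the cupin, normalized reads were 3.34, 0 and 4.71 in the NaOH libraries, 5.71, 15.8 and 3.74 with ABA, 0, 0 and 1.13 in the H2O libraries and 330.4, 139.7 and 266 with PEG. The H2O group held 1 read in all, and the PEG to H2O ratio was 527 with a 95% counting interval of 94.5 to 20803. The difference of −7.14 (SE 1.89, adjusted p 0.048) was lost without any 1 of ABA 1 or 3, H2O 1 or 3, NaOH 1 or 3 or PEG 1 or 3 (adjusted p 0.070 to 0.26, differences −6.27 to −9.35).

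Other genes that rose with PEG and did not pass with ABA included a gamma-thionin (Sb01g048380), one of the small defensin peptides, and a chitinase (Sb06g021240), an enzyme that breaks down fungal cell walls. The gamma-thionin differed by −3.67 (SE 0.78, adjusted p 0.016) and lost its call without either H2O 3 or NaOH 2 (adjusted p 0.053 to 0.074, differences −3.02 to −3.22). The chitinase differed by −2.92 (SE 0.76, adjusted p 0.044) and lost it without any 1 of ABA 1, 2 or 3, H2O 1 or 3, NaOH 1 or 2 or PEG 2 or 3 (adjusted p 0.054 to 0.14, differences −2.27 to −3.11). Of the 30 pathogen defence genes tested, 1 was called below and 1 above, and without H2O replicate 2 or with the block 4 below and 1 above. A gene for a sugar carrier described as protein C (Sb01g042690), of a family that moves hexoses across the plasma membrane, rose with PEG (1.27) and not with ABA (−0.73), and its difference of −1.99 (SE 0.42, adjusted p 0.016) was lost without H2O 3 (adjusted p 0.052, difference −1.75). The sugar transporter with the most reads per exon length, Sb08g016530, differed by −0.42 (SE 0.75, adjusted p 0.83), and the sugar carrier was the 1 called of the 9 in that list. The first dedicated step of ABA synthesis, 9-cis-epoxycarotenoid dioxygenase 1 (Sb01g013520, named after its values were seen), had normalized reads of 58.5, 18.2 and 35.3 in the NaOH libraries, 104, 59.0 and 61.7 with ABA, 40.4, 11.1 and 47.3 in the H2O libraries and 1106, 216 and 1075 with PEG. PEG libraries were above all others, and ABA libraries were just above theirs. It rose with PEG (4.59), and the ABA effect was 1.04. The difference of −3.54 (SE 1.09, adjusted p 0.091) did not pass with all libraries and passed with the replicate block, at −3.39 (adjusted p 0.032).

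**Figure D2:**
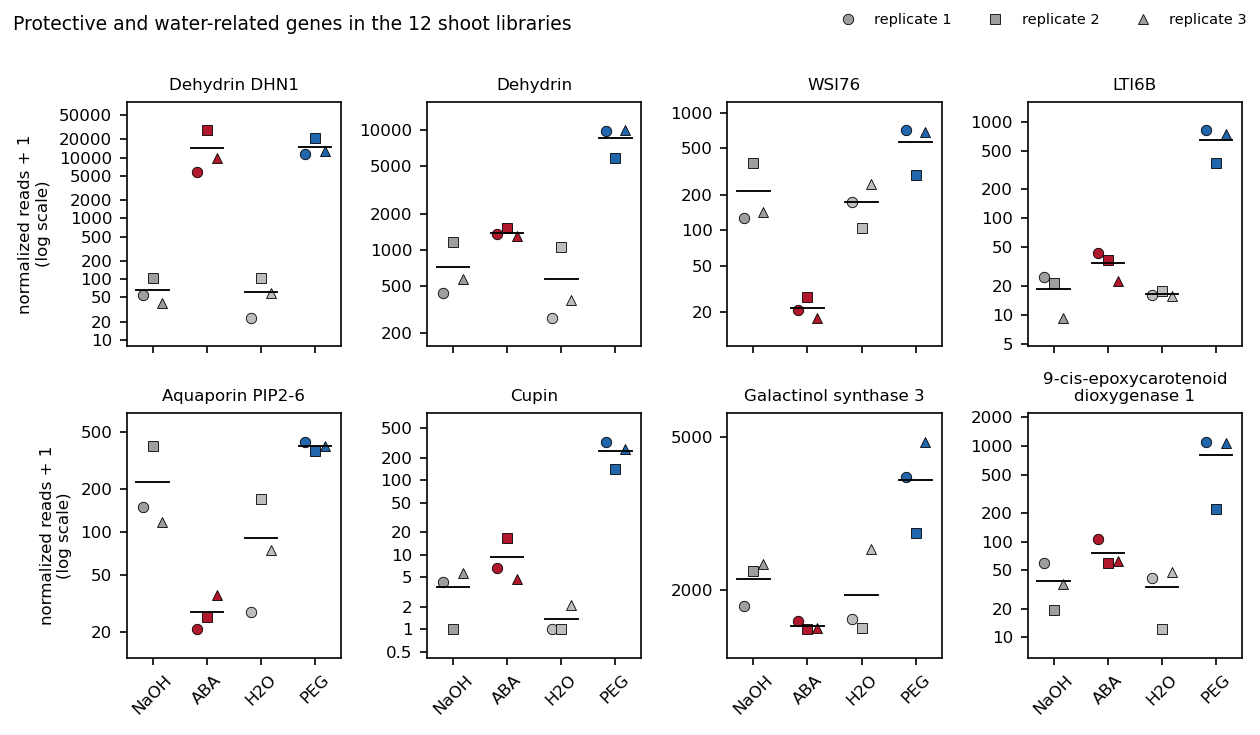
Normalized reads (log axis) in each of the 12 shoot libraries for genes of water transport and protection. Points are libraries and bars are group means. The PEG libraries are above their H2O controls in each panel, while the ABA libraries are below their NaOH controls for PIP2-6 and WSI76 and level with PEG for DHN1.

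Genes of cell expansion were the list with the most calls below, through falls with ABA rather than rises with PEG. Of 33 expansin genes tested, 25 had a negative difference, with a median of −1.38 and a highest value of 1.67 over the 33. In at least 1 shoot library 21 had more than 3 reads, and all 21 had a negative difference, with a median of −2.25. Of the 33, 9 were called below and 0 above with all libraries, 12 below without H2O replicate 2 and 11 below with the replicate block, against 3.75% of described genes called below. With ABA 11 of the 33 fell and 1 rose, and with PEG 1 fell and 2 rose. The most abundant of those called was alpha-expansin 1 (Sb03g038290; chromosome 3, 66231892 to 66234109). For alpha-expansin 1, normalized reads were 2977, 3592 and 5511 in the NaOH libraries, 259.9, 269 and 296 with ABA, 3241, 3303 and 4708 in the H2O libraries and 2060.3, 1406 and 2145 with PEG. The ABA libraries were the lowest, and the PEG libraries lay between these and the controls without overlap. It fell with both treatments (ABA −3.87, PEG −1.0) and the difference was −2.87 (SE 0.34, adjusted p 0.00022).

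Beta-expansin 4 (Sb02g010720; chromosome 2, 16668971 to 16670475) moved in opposite directions. Its normalized reads were 165, 298 and 441 in the NaOH libraries, 32.8, 97.8 and 56.1 with ABA, 104, 286 and 273 in the H2O libraries and 399.7, 378 and 566 with PEG. ABA libraries all lay under their controls and PEG libraries over theirs. Both effects passed (ABA −2.29, PEG 1.01) and the difference was −3.30 (SE 0.51, adjusted p 0.0016). Beta-expansin 6 (Sb01g029330) fell with ABA (−2.70) and differed by −2.76 (SE 0.36, adjusted p 0.00035), with a PEG effect of 0.07. A neighbour with the same description, Sb01g029340, differed by −2.57, and such copies may each be undercounted. Beta-expansin 7 (Sb01g029270), with normalized reads of 926, 1625 and 2213 in the NaOH libraries, 74.3, 118 and 130.0 with ABA, 939, 1866 and 1688 in the H2O libraries and 889.7, 873 and 1039.8 with PEG, had the deepest fall with ABA (−3.88) among the expansins named here. The ABA libraries lay far below every other shoot library. The call of −3.19 (SE 0.75, adjusted p 0.027) was lost without any 1 of ABA 1 or 3, H2O 1 or 3, NaOH 3 or PEG 3 (adjusted p 0.052 to 0.080, differences −2.88 to −3.36). The expansin described as A4 (Sb09g023440), named after its values were seen, differed by −2.59 (SE 0.30, adjusted p 0.00021), and its PEG and H2O libraries overlapped. In the wider list of 52 genes for cell wall loosening and pectin, 9 were called below, all of them expansins, and 1 above, and with the replicate block 15 below and 3 above. The median ABA effect of this list was −1.49 and the median PEG effect 0.00. The arabinogalactan protein Sb03g030690, the most abundant in the list per exon length, fell with both treatments (ABA −1.20, PEG −1.09) and differed by −0.11 (SE 0.40, adjusted p 0.94).

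Glutaredoxins, small enzymes that reduce disulfides with glutathione and of which a plant-specific class acts with transcription factors, were called below too. Of 9 tested, 7 fell with ABA and 1 rose, and 0 passed with PEG in either direction. The difference was called below for 5 with all libraries and for 7 without H2O replicate 2 or with the block, and 1, glutaredoxin-C7 (Sb09g006140, named after its values were seen), was called above without H2O replicate 2. For glutaredoxin-C1 (Sb03g014800; chromosome 3, 20560300 to 20560970), normalized reads were 25.1, 176 and 98.9 in the NaOH libraries, 4.28, 14.4 and 4.68 with ABA, 37.0, 108 and 31.5 in the H2O libraries and 166, 191 and 201 with PEG. No ABA library reached the lowest of the other shoot libraries. The difference was −5.41 (SE 0.91, adjusted p 0.0087), or −6.20 (adjusted p 0.0012) without H2O replicate 2. Its neighbour Sb03g014790, with the same description, held 1 read in the ABA group, a NaOH to ABA ratio of 55.3 with a 95% counting interval of 9.93 to 2185. That difference of −6.52 (SE 1.46, adjusted p 0.032) was lost without any 1 of ABA 1, 2 or 3, H2O 1 or 3, NaOH 2 or 3 or PEG 3 (adjusted p 0.054 to 0.10, differences −5.86 to −8.63). Glutaredoxin-C14 (Sb08g017090) differed by −3.51 (SE 0.66, adjusted p 0.011). Glutaredoxin-C10 (Sb05g025900) differed by −3.91 (SE 0.82, adjusted p 0.016), and its call was lost without ABA 1 (adjusted p 0.052, difference −3.66). In each of these the ABA libraries were below every other shoot library. Glutaredoxin-C15 (Sb08g017170), named after its values were seen, differed by −1.75 (SE 0.41, adjusted p 0.030), lost without any 1 of ABA 1 or 3, H2O 3, NaOH 2 or 3 or PEG 1 or 3 (adjusted p 0.058 to 0.090, differences −1.56 to −1.76). Metallothionein (Sb03g006090), the most abundant gene of the list that holds them, differed by 0.23 (SE 0.25, adjusted p 0.70).

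The type-A response regulators, which cytokinin induces and which damp its signal, were picked out after their values were seen. Of the 8 response regulators described, 6 were called below, with all libraries, without H2O replicate 2 and with the block. Response regulator 6 (Sb08g001140; chromosome 8, 1082819 to 1084887) had the largest difference of these. For this gene, normalized reads were 378, 394 and 391 in the NaOH libraries, 20.0, 14.4 and 34.6 with ABA, 495, 259 and 232 in the H2O libraries and 169.5, 159 and 135 with PEG. Lowest were the ABA libraries, then the PEG libraries, and all controls were above both. It fell with both treatments (ABA −4.01, PEG −1.08), and the difference was −2.93 (SE 0.36, adjusted p 0.00027). The regulators ZmRR2 (Sb06g032600, −2.54), Sb04g022785 (−1.97), Sb06g017550 (−1.93), Sb04g022780 (−1.49) and Sb03g046040 (−1.47) fell with ABA and did not pass with PEG. Of these 6, Sb03g046040 lost its call without either ABA 1 or H2O 3 (adjusted p 0.051 to 0.060, differences −1.26 to −1.31).

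Genes of the growth hormones gibberellin and auxin were called below as well. Gibberellin 20-oxidase (Sb01g000580; chromosome 1, 462325 to 464149) makes the growth hormone gibberellin, and its normalized reads were 135, 108 and 179 in the NaOH libraries, 12.9, 31.6 and 35.5 with ABA, 99.3, 153 and 100.1 in the H2O libraries and 111, 105 and 162 with PEG. Every ABA library was below all others, and PEG libraries overlapped their controls. It fell with ABA (−2.36), the PEG effect was 0.11, and the difference was −2.47 (SE 0.41, adjusted p 0.0033). The 3 other gibberellin genes of the list were not called, among them ent-kaurene oxidase (Sb10g022520, −0.15). GH3.8 (Sb02g038170), which in rice joins auxin to amino acids, rose with PEG. Its normalized reads were 41.8, 47.1 and 65.9 in the NaOH libraries, 28.6, 31.6 and 32.7 with ABA, 16.8, 69.3 and 28.1 in the H2O libraries and 153, 93.9 and 130.1 with PEG. The PEG libraries were above all others, and H2O replicate 2 was far above the other H2O libraries. Its difference was −2.45 (SE 0.49, adjusted p 0.011), or −3.18 (adjusted p 0.00032) without H2O replicate 2. The auxin-responsive gene IAA2 (Sb03g003200) differed by −1.80 (SE 0.43, adjusted p 0.029), lost without any 1 of ABA 1 or 3, H2O 3, NaOH 2 or PEG 2 (adjusted p 0.067 to 0.097, differences −1.27 to −1.79). Of the 17 auxin genes these were the 2 called, both below.

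Trehalose-6-phosphate is a sugar signal that reports sucrose supply. The study's pathway enrichment of its differentially expressed genes gave 8 genes of trehalose synthesis, so these may not be the whole pathway. Of the 8, 5 fell with ABA and 1 with PEG, 1 rose with each, and 4 were called below and 0 above. In the word list of 4 trehalose genes, 3 fell with ABA and 1 with PEG, and 2 were called below and 0 above. The trehalose-6-phosphate synthase Sb03g034640 (chromosome 3, 62806280 to 62810877) had normalized reads of 1844, 2065 and 2724 in the NaOH libraries, 608, 439 and 584 with ABA, 2175, 2292 and 2286 in the H2O libraries and 1271, 1387 and 1283 with PEG. ABA libraries were the lowest, PEG libraries next and the controls highest, with no overlap between treated and control libraries. It fell with ABA (−2.02), the PEG effect of −0.78 did not pass, and the difference was −1.25 (SE 0.18, adjusted p 0.0012). The synthase Sb02g023610 differed by −1.44 (SE 0.28, adjusted p 0.0096), with PEG and H2O libraries that overlapped. Another gene of the pathway, Sb04g035560, named after its values were seen, fell with ABA (−2.05) and rose with PEG (1.08), a difference of −3.13 (SE 0.48, adjusted p 0.0014). The beta subunit 2 of SnRK1 (Sb09g024060, also named after its values were seen), part of the kinase that senses low energy, had normalized reads of 274, 176 and 354 in the NaOH libraries, 75.7, 54.7 and 72.9 with ABA, 291, 236 and 243 in the H2O libraries and 293, 550.4 and 268 with PEG. All ABA libraries were below all others, and the gene differed by −2.50 (SE 0.39, adjusted p 0.0016). The summed histone level, a marker of dividing cells, moved in these libraries too: it was 148, 537 and 268 RPM in the NaOH libraries, 145, 152 and 133 with ABA, 60.8, 579.7 and 117 in the H2O libraries and 418, 535 and 320.5 with PEG, and its part in the growth genes was not tested.

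**Figure D3:**
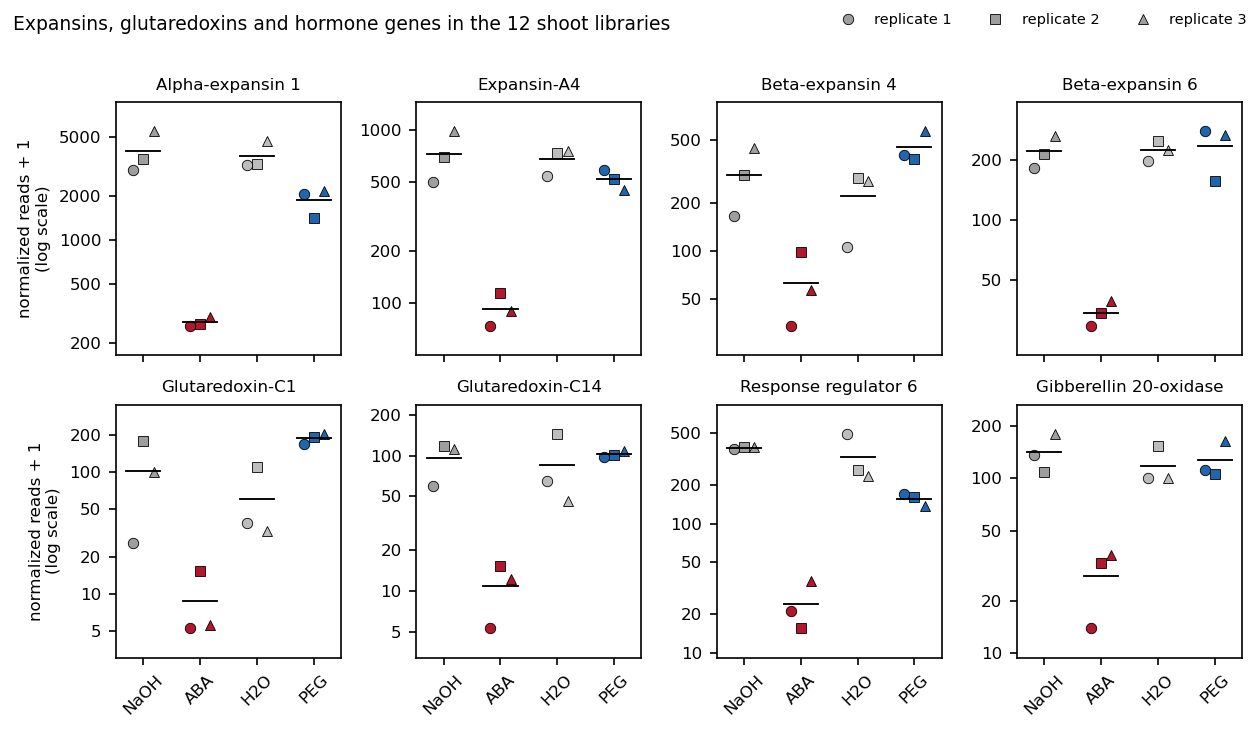
Normalized reads (log axis) in each of the 12 shoot libraries for genes of cell expansion, glutaredoxins, cytokinin response and growth hormones. Points are libraries and bars are group means. The ABA libraries are below their NaOH controls in every panel.

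Of 21 genes for light harvesting and photosystems, 16 fell and 2 rose with ABA, and 5 fell and 2 rose with PEG. The difference was negative for 17 of the 21 and was called for 1, with a median of −0.41. That gene, a chlorophyll a/b binding protein (Sb03g027030; chromosome 3, 54201285 to 54202631), had normalized reads of 37997, 48850.3 and 65139 in the NaOH libraries, 1882, 4201 and 4379.7 with ABA, 41309, 47402 and 44323 in the H2O libraries and 12461, 13536 and 19464 with PEG. ABA libraries were far below PEG libraries, and both were below all controls. It fell with both treatments (ABA −3.86, PEG −1.55) and differed by −2.31 (SE 0.44, adjusted p 0.0087). The most abundant gene of the list per exon length, chlorophyll a/b binding protein 151 (Sb01g015400), had normalized reads of 250022, 234487 and 267402 in the NaOH libraries, 102678, 146849 and 123866 with ABA, 242976, 208006 and 257603 in the H2O libraries and 117470.0, 110106 and 156371 with PEG. Its ABA and PEG libraries overlapped, below all controls. Neither of its effects passed, and its difference was −0.13 (SE 0.70, adjusted p 0.97).

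The 3 flavonoid genes called below encode enzymes that join sugars to flavonoids, and each fell with ABA. The anthocyanidin 3-O-glucosyltransferase Sb10g006140 had normalized reads of 135, 92.2 and 121 in the NaOH libraries, 11.4, 18.7 and 10.3 with ABA, 103, 58.2 and 68.6 in the H2O libraries and 84.1, 39.7 and 90.9 with PEG. All ABA libraries were below all other shoot libraries. The difference was −3.04 (SE 0.52, adjusted p 0.0042), with a PEG effect of −0.08. A flavonol glucosyltransferase (Sb09g026310) differed by −1.83 (SE 0.38, adjusted p 0.015) and an anthocyanin 5-O-glucosyltransferase (Sb10g023120) by −1.33 (SE 0.34, adjusted p 0.043), the latter lost without any 1 of ABA 1 or 3, H2O 3, NaOH 1, 2 or 3 or PEG 1 or 3 (adjusted p 0.058 to 0.12, differences −1.12 to −1.44). Their ABA effects were −2.30 and −1.36. The glutathione transferase GST 19 (Sb10g022780), of a family that joins glutathione to toxic compounds, fell with ABA (−4.53) and differed by −3.27 (SE 0.71, adjusted p 0.017), lost without either ABA 1 or ABA 3 (adjusted p 0.056, differences −2.94 to −3.17).

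Genes with the ABA effect above the PEG effect included the gene for the enzyme that breaks ABA down. ABA 8'-hydroxylase 3 (Sb02g026600; chromosome 2, 61762825 to 61765740) opens the main route of ABA catabolism. For this gene, normalized reads were 918, 1009 and 950.1 in the NaOH libraries, 8584, 7065 and 6710.3 with ABA, 912, 471 and 1068 in the H2O libraries and 1048, 677 and 1604 with PEG. Each ABA library was several times above every other shoot library. It rose with ABA (2.96), the PEG effect was 0.44, and the difference was 2.52 (SE 0.36, adjusted p 0.0010), or 2.79 (adjusted p 8.5e-05) without H2O replicate 2. The other 2 ABA 8'-hydroxylases tested were not called, and of 11 genes for ABA signalling and turnover this was the 1 called with all libraries. A GA2-oxidase (Sb09g028360; chromosome 9, 57265477 to 57266870), which inactivates gibberellin, had few reads. Its normalized reads were 21.7, 1.07 and 15.3 in the NaOH libraries, 82.8, 11.5 and 46.8 with ABA, 15.2, 9.71 and 27.0 in the H2O libraries and 0, 1.20 and 2.67 with PEG. It fell with PEG, where the group held 4 reads, and the ABA effect of 1.97 did not pass. The difference of 5.48 (SE 1.26, adjusted p 0.023) was lost without any 1 of ABA 1, H2O 3 or PEG 1 (adjusted p 0.064 to 0.097, differences 4.85 to 5.01). ABA libraries replicates 1 and 3 were above all other libraries, and ABA replicate 2 overlapped the controls.

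Transporters and enzymes of mineral nutrition were also called above. Of 16 genes for phosphate, sulfate and metal transport, 4 were called above and 0 below, against 2.77% of described genes called above. The numbers were the same without H2O replicate 2 and with the block, but 1 above and 0 below in the fit of the 12 shoot libraries alone. The median of the list was 0.07. An SPX domain gene (Sb04g031920; chromosome 4, 61816174 to 61819684), of the family that senses phosphate status, had normalized reads of 548, 249.7 and 604 in the NaOH libraries, 2512, 2414 and 2874 with ABA, 574, 649 and 1001 in the H2O libraries and 409.6, 542 and 596 with PEG. Each ABA library was above every other shoot library, and PEG and H2O libraries overlapped. It rose with ABA (2.48) and differed by 3.01 (SE 0.46, adjusted p 0.0014). The sulfate transporter ST1 (Sb01g044090; chromosome 1, 67251110 to 67255570) had normalized reads of 766, 504 and 848 in the NaOH libraries, 1774, 2218 and 1813 with ABA, 789.5, 496 and 979 in the H2O libraries and 686, 758 and 792 with PEG. All ABA libraries were above all others, which overlapped, and the difference was 1.48 (SE 0.30, adjusted p 0.013). The iron regulated metal transporter Sb01g012430 (chromosome 1, 11475422 to 11479874) had normalized reads of 61.9, 111 and 61.2 in the NaOH libraries, 218, 265 and 140.3 with ABA, 37.0, 76.3 and 65.3 in the H2O libraries and 23.5, 43.4 and 23.2 with PEG. ABA libraries were above all others, and the PEG libraries were the lowest with 1 overlap with H2O. It rose with ABA (1.38), the PEG effect of −1.02 did not pass, and the difference was 2.40 (SE 0.48, adjusted p 0.011). The zinc transporter Sb07g005140 fell with PEG. Its normalized reads were 1494, 195 and 626 in the NaOH libraries, 461, 201 and 209 with ABA, 1177, 277 and 717 in the H2O libraries and 43.3, 0 and 25.8 with PEG. PEG libraries were below every other shoot library, and the NaOH libraries spread widely and overlapped those with ABA. Its difference of 3.55 (SE 0.93, adjusted p 0.045) was lost without any 1 of ABA 1 or 3, H2O 1 or 3, NaOH 2 or 3 or PEG 2 or 3 (adjusted p 0.063 to 0.12, differences 3.02 to 3.75). The gene of the list with the most reads per exon length, nicotianamine synthase 3 (Sb01g013150), which makes a metal chelator, differed by −0.27 (SE 0.50, adjusted p 0.83).

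Outside that list, the gene described as iron-deficiency specific clone 3 (Sb08g016390), a dioxygenase in barley that acts late in phytosiderophore synthesis, rose with ABA (3.49). Its normalized reads were 80.2, 5.36 and 35.3 in the NaOH libraries, 841, 135 and 296 with ABA, 28.6, 61.0 and 37.1 in the H2O libraries and 28.5, 36.1 and 46.3 with PEG. The ABA libraries were above all others but spread widely, as did the NaOH libraries. The difference of 3.68 (SE 0.86, adjusted p 0.027) was lost without any 1 of ABA 1, H2O 3, NaOH 3 or PEG 1 (adjusted p 0.059 to 0.067, differences 2.72 to 3.78). Adenylyl-sulfate kinase (Sb05g025240), which phosphorylates activated sulfate, and deoxymugineic acid synthase 1 (Sb01g041640), which makes the iron chelator of grasses, were named after their values were seen. The kinase differed by 1.84 (SE 0.33, adjusted p 0.0062) and rose with ABA (1.69). The synthase differed by 1.51 (SE 0.34, adjusted p 0.019) through a fall with PEG (−1.31), with an ABA effect of 0.20, and was lost without either ABA 1 or H2O 3 (adjusted p 0.055 to 0.063, differences 1.32 to 1.47).

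A peroxidase and a protein kinase were the 2 genes that rose with ABA and fell with PEG. The plasma membrane-bound peroxidase 3-1 (Sb02g042860; chromosome 2, 76598474 to 76600308) had normalized reads of 1324, 789 and 1299.7 in the NaOH libraries, 3414, 1860.1 and 2666 with ABA, 1204, 735 and 1313 in the H2O libraries and 338, 258 and 306 with PEG. The ABA libraries were all above their controls and the PEG libraries all below theirs. The ABA effect was 1.22 and the PEG effect −1.85, a difference of 3.07 (SE 0.38, adjusted p 0.00027). The protein kinase Sb08g002740 (chromosome 8, 2911247 to 2912846) had normalized reads of 2967, 571 and 1664 in the NaOH libraries, 5791, 2699 and 5310.2 with ABA, 2619, 1588 and 2453 in the H2O libraries and 641, 508 and 504 with PEG. The PEG libraries were below their controls, and NaOH replicate 1 overlapped the ABA libraries. Its effects were 1.41 with ABA and −2.01 with PEG, and the difference was 3.42 (SE 0.58, adjusted p 0.0038). Of 48 peroxidase genes tested, 2 were called above and 0 below, the other being the neighbouring gene Sb02g042850 (named after its values were seen), at 3.59 (SE 0.79, adjusted p 0.018), lost without any 1 of ABA 1, H2O 3 or PEG 3 (adjusted p 0.050 to 0.059, differences 3.31 to 3.42). Ascorbate peroxidase (Sb02g044060), the most abundant of the list per exon length, differed by 0.49 (SE 0.22, adjusted p 0.24).

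Some genes for steps that lead to anthocyanins had the ABA effect above the PEG effect. The maize genes A1 and BZ2 encode a dihydroflavonol reductase and a glutathione transferase needed to bring anthocyanins to the vacuole, and leucoanthocyanidin dioxygenase acts between them. The gene described as reductase A1-a (Sb03g028880, named after its values were seen) had normalized reads of 610.2, 673 and 551 in the NaOH libraries, 1891, 1794 and 1806 with ABA, 518, 531 and 769.6 in the H2O libraries and 314, 403 and 542 with PEG. Only ABA libraries stood apart, above all others, and the difference was 2.11 (SE 0.30, adjusted p 0.0011). The BZ2-like Sb01g022070 (chromosome 1, 27056472 to 27057290) had normalized reads of 160.5, 113 and 125 in the NaOH libraries, 408, 463 and 427 with ABA, 104, 95.7 and 125 in the H2O libraries and 71.8, 72.3 and 83.8 with PEG. ABA libraries were the highest and PEG libraries the lowest, with no overlap between any treated and control group. It rose with ABA (1.71), the PEG effect of −0.51 did not pass, and the difference was 2.22 (SE 0.43, adjusted p 0.0087). The neighbouring BZ2-like Sb01g022080 differed by 1.71 (SE 0.42, adjusted p 0.045), lost without any 1 of ABA 1, 2 or 3, H2O 3, NaOH 2 or 3 or PEG 1 or 2 (adjusted p 0.059 to 0.14, differences 1.49 to 1.85). Leucoanthocyanidin dioxygenase (Sb04g000260), with normalized reads of 1642, 1387 and 1110.2 in the NaOH libraries, 2642, 2489 and 2662 with ABA, 985, 885 and 1470.6 in the H2O libraries and 634, 566 and 985 with PEG, passed for neither treatment alone. Every ABA library was above every other library, and the difference was 1.53 (SE 0.33, adjusted p 0.016), lost without either H2O 3 or NaOH 3 (adjusted p 0.051 to 0.059, differences 1.27 to 1.39). A gene like TRANSPARENT TESTA 12 (Sb08g021640, named after its values were seen), in Arabidopsis a vacuolar flavonoid transporter, differed by 2.33 (SE 0.51, adjusted p 0.018), lost without any 1 of ABA 3, H2O 3 or PEG 1 (adjusted p 0.051 to 0.069, differences 2.13 to 2.21). In the list of 15 flavonoid genes, 1 was called above and 3 below, the 3 being the glucosyltransferases given earlier, and with the replicate block 3 above and 3 below.

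**Figure D4:**
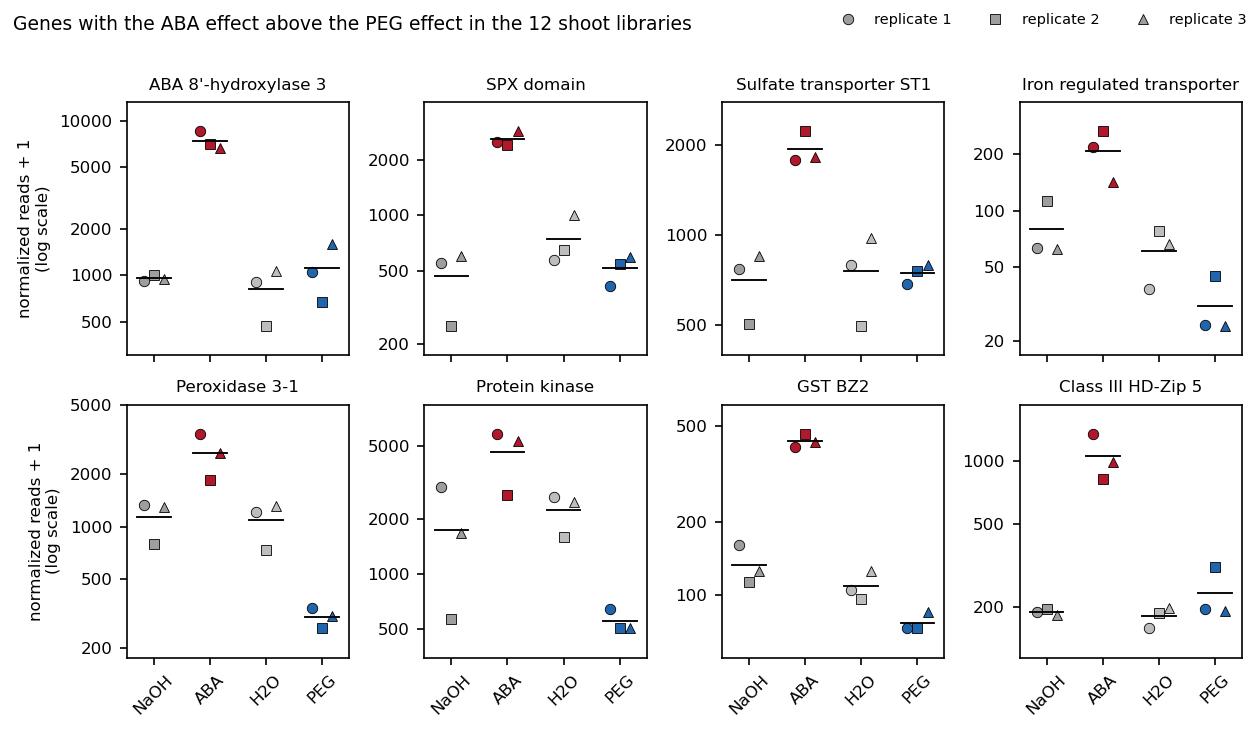
Normalized reads (log axis) in each of the 12 shoot libraries for genes with the ABA effect above the PEG effect. Points are libraries and bars are group means. Mean levels with ABA are above mean levels with PEG in every panel.

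Regulators with a higher ABA effect included a homeodomain factor of class III (HD-Zip protein 5, Sb03g002660; chromosome 3, 2555559 to 2560228), of a class that patterns leaves and vascular tissue. For this factor, normalized reads were 187, 195 and 181 in the NaOH libraries, 1347, 823 and 987 with ABA, 157, 186 and 196 in the H2O libraries and 194, 311 and 191 with PEG. The ABA libraries were far above all others, and the other groups overlapped. It rose with ABA (2.48) and differed by 2.12 (SE 0.25, adjusted p 0.00022). The vascular and lignifying marker genes summed to 216 to 259 RPM in the NaOH libraries, 81.3 to 113 with ABA, 183 to 241 in the H2O libraries and 112 to 170.2 with PEG, and their part in this result was not tested. TaMYB1 (Sb04g005940), named for a MYB factor of wheat, had normalized reads of 164, 162 and 135 in the NaOH libraries, 595, 574 and 515 with ABA, 101, 198 and 125 in the H2O libraries and 129.9, 183 and 188 with PEG. Again only the ABA libraries stood apart, above all others, with a difference of 1.63 (SE 0.29, adjusted p 0.0049). MYB18 (Sb03g011640) differed by 1.13 (SE 0.19, adjusted p 0.0032) and an AP2 domain gene (Sb04g032940) by 1.54 (SE 0.27, adjusted p 0.0049). A D-type cyclin (Sb01g043610), which moves cells into the division cycle, rose with ABA (2.13) and differed by 1.75 (SE 0.37, adjusted p 0.016). Of 18 described MYB factors 2 were called above and 1 below, of 15 AP2/ERF factors 1 above, and of 13 homeobox factors 1 above. A bZIP factor (Sb02g020760), the most abundant of its list, differed the other way, at −1.09 (SE 0.22, adjusted p 0.012). Its difference fell under the cutoff of 1 without either ABA 3 or NaOH 1 (adjusted p 0.026 to 0.033, differences −0.93 to −0.98).

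Across all 405 genes, 16 passed the test for both effects in opposite directions. The 14 that fell with ABA and rose with PEG had a median difference of −3.68. They included PIP2-6, WSI76, beta-expansin 4 and Sb04g035560, described earlier, and the glutathione transferase GST 8 (Sb03g015070), named after its values were seen. GST 8 had normalized reads of 6.69, 4.29 and 11.8 in the NaOH libraries, 0, 4.32 and 0 with ABA, 1.68, 11.1 and 7.88 in the H2O libraries and 26.0, 24.1 and 46.3 with PEG and differed by −4.67 (SE 1.0, adjusted p 0.016), lost without either ABA 3 or NaOH 3 (adjusted p 0.052 to 0.072, differences −3.92 to −4.16). The ABA group held 3 reads, a NaOH to ABA ratio of 5.98 with a 95% counting interval of 2.05 to 29.0. Replicates 1 and 3 of that group were at 0, and all PEG libraries were above all others. The other 9 of the 14 carried no description that names a function, with differences from −4.20 (Sb05g019190) to −2.36 (Sb06g027690).

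For histone genes, the packing proteins made when DNA is copied, the calls depended on 1 control library and on the replicate block. None of the 13 tested was called by edgeR with all libraries, where 12 had an unadjusted p under 0.05 and a median difference of −1.94 was measured over the 13, and DESeq2 called 2. However, 12 were called below without H2O replicate 2, with a median of −3.19, and 12 with the replicate block. The exception was H2AXb (Sb01g028960), at −0.78 (SE 0.63, adjusted p 0.55). In the summed histone level given earlier, replicate 2 was the highest of its group in all 4 shoot groups, by little with ABA. The PEG libraries lay between H2O replicate 2 and the other H2O libraries. Leaving out H2O replicate 2 alone keeps the replicate 2 libraries of the other groups, so that fit is unbalanced over the replicate numbers. Over the genome, 1301 genes were called below and 222 above only once H2O replicate 2 was left out. Of the 1301, 767 had a rise with PEG that passed in that fit and 288 a fall with ABA. With all libraries, 3.94% of all genes tested rose with PEG and 5.85% fell with ABA. The share that rose with PEG without H2O replicate 2 is not given here, so the 767 cannot be judged against the 3.94%. H2O replicate 2 is a control of the PEG effect, so leaving it out moves that effect and the difference together. Of the same 1301, 398 were also called with the replicate block and all libraries. With the block and without that library 1128 were called, in a fit that called 6.91% of all genes below.

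**Figure D5:**
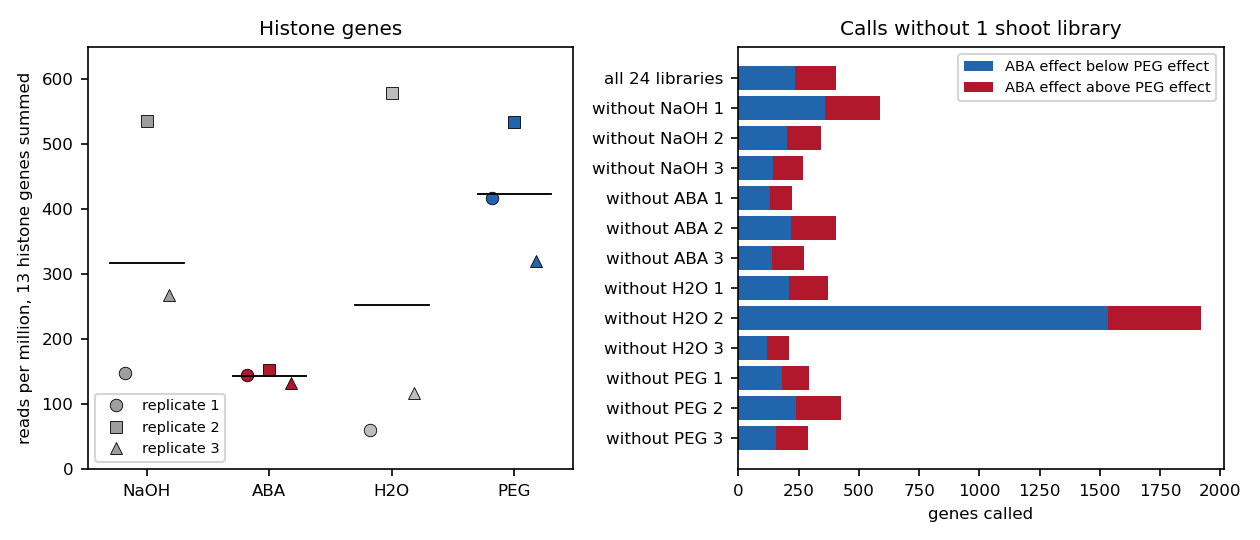
Summed histone level (RPM) in each of the 12 shoot libraries, and number of genes called with the ABA effect above and below the PEG effect under each setting. H2O replicate 2 is at 579.7 against 60.8 and 117 in the other H2O libraries, and the number called below is 236 with all libraries and 1533 without it.

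Several gene groups that one or both treatments moved had no call on the difference in edgeR with all libraries. Of the 12 small heat shock and chaperone genes, 8 rose with ABA and 10 with PEG, and the median difference was 0.21, with 1 unadjusted p under 0.05 and 1 call by DESeq2. Of 12 ribosomal protein genes 10 fell with ABA and 0 with PEG. Here 7 had an unadjusted p under 0.05, DESeq2 called 0, and 2 were called below without H2O replicate 2. Among 15 starch and sucrose genes, 8 rose with ABA and 5 with PEG, 5 had an unadjusted p under 0.05, DESeq2 called 0, and 3 were called above with the replicate block. Among 12 lipid transfer and wax genes, 7 rose with ABA and 4 with PEG, 6 had an unadjusted p under 0.05, DESeq2 called 0, and 2 were called above without H2O replicate 2 or with the block. Among 12 jasmonate and lipoxygenase genes, 6 rose with each treatment, 3 had an unadjusted p under 0.05 and DESeq2 called 1. The 9 WRKY factors gave 4 unadjusted p under 0.05 and 1 call by DESeq2, and the 5 carbon fixation genes 1 and 0. Among 17 lignin and phenylpropanoid genes, 7 fell with ABA and 1 with PEG, 8 had an unadjusted p under 0.05, DESeq2 called 1, and 3 were called below with the block. A count of 0 does not show that the treatments acted alike. By comparison, of 36 cytochrome P450 genes 1 was called above and 2 below, and with the block 1 above and 6 below, and of 23 glutathione transferases 2 were called above and 3 below.

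The same comparison was made in the 12 root libraries, which came from the same plants. There 2750 genes (12.1%) were called, and 86 of the 405 shoot genes (21.2%) were called in roots in the same direction, 3.13% of the root calls. For genes with the ABA effect below this was 62 of 236 (26.3%, against 8.15% of all genes called below in roots), and for genes with it above 24 of 169 (14.2%, against 3.98%). Of the 33 expansins, all from the study's lists of differentially expressed genes in shoots or roots, 23 were called below in roots and 0 above. In contrast, 0 of the 9 glutaredoxins were called in roots in either direction, a difference between tissues that was not tested as a group. The SPX gene differed by 3.09 (SE 0.45, adjusted p 7.7e-05) in roots and peroxidase 3-1 by 2.35 (SE 0.39, adjusted p 0.00026), both in the shoot's direction, while PIP2-6 differed by −1.58 (SE 0.64, adjusted p 0.11), which did not pass.

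The shoot difference minus the root difference, a test added after the data were seen, was called for 950 genes (4.19%) and for 114 of the 405. The 405 were picked on the shoot part of this value, which raises their count by construction. In 19 genes the 2 tissues were called in opposite directions. Among the 169 genes called above in shoots, 11 were called below in roots, against 8.15% of all genes tested. Among the 236 called below in shoots, 8 were called above in roots, against 3.98% of all genes tested. In neither direction was the share above that of all genes. The dehydrin Sb04g032250 differed by 2.67 (SE 0.56, adjusted p 0.0022) in roots, against −2.98 in shoots. ST1 differed by −2.85 (SE 0.31, adjusted p 2.6e-06) in roots and the iron regulated transporter by −1.90 (SE 0.37, adjusted p 0.0013), against 1.48 and 2.40 in shoots. Deoxymugineic acid synthase 1 followed these transporters, at −2.30 (SE 0.34, adjusted p 7.5e-05) in roots and 1.51 in shoots. DHN1, with no call in shoots, differed by 4.75 (SE 0.67, adjusted p 5.0e-05) in roots. ABA 8'-hydroxylase 3 was called above in both tissues, at 8.17 (SE 1.24, adjusted p 0.00011) in roots.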

How the data were processed

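RNA-Seq libraries of shoots and roots (24, 3 in each of 8 groups) were grouped by the condition and replicate number in the sample labels. The authors cut reads to 50 bases, mapped them onto the sbi1 assembly with ELAND_rna, dropped reads with more than 1 match, and summed them over gene models with CASAVA, ignoring strand. The raw count deposited by the authors is a count of aligned bases on exons. Each was turned into whole reads by dividing by 50 and rounding (93.5% to 94.4% of the shoot values, zeros included, were multiples of 50). The RPKM values that the authors deposited, which rest on these bases too, were not used. The coverage that the authors deposited, aligned bases per exon base, served for 1 filter on the genes named: its median had to reach 2X in some shoot group. Labels and methods of the study give different NaOH concentrations for the control, and none is used here.

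The test was edgeR 4.0.16 (R 4.3.3), a quasi-likelihood model with robust dispersion and 1 mean per group, fitted to the 24 libraries together, with TMM factors and low counts filtered by the package over the 8 groups (22667 of 34145 genes kept), two-sided p-values and Benjamini-Hochberg adjustment over the genes kept. The biological coefficient of variation was 0.205. The scripts were tested on simulated data. Alternatives were fits without each shoot library or replicate number, 12 libraries, a replicate block, the base-calling version as a term, DESeq2 1.42.0, its size factors, library sizes alone, other low-count filters, no fold cutoff, the depth filter, and bases in place of reads. The test of shoots against roots was added after the data were seen.

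Replicate numbers pair the libraries, because each number was a separate hydroponic experiment according to the methods of the study. Deviations from the group means correlated at 0.0662 to 0.579 (median 0.269, 17 of 18 pairs over 0.1) between shoot libraries of the same number and at −0.579 to 0.235 (median −0.135, 3 of 36 over 0.1) between those of different numbers.

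Members and gene lists were chosen with earlier results of these data known. The 41 lists are word searches in the descriptions of genes that the study called differentially expressed in these libraries. The genes named by rule are, among those called with all libraries and without H2O replicate 2 that pass the depth filter and whose description names a function, the 12 with the largest difference in each direction, up to 10 with opposite effects, and up to 4 of each list, and beside these the gene with the most reads per exon length of each list that has a call, 71 in all. Where a group holds 1 to 3 reads a ratio with an exact 95% counting interval is given, which covers counting error only. Promoter and protein sequences were not analysed here.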

Additional observations from a re-analysis of the deposited data

Results flagged for a closer look

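For 5 of the 71 genes named by rule, the difference between the ABA and the PEG effect went one way in shoots and the opposite way in roots, and passed the test in each tissue. The same holds for deoxymugineic acid synthase 1 and the LTI6B gene Sb09g003050, named after their values were seen. The shoot difference minus the root difference was therefore tested for all genes, with edgeR and all 24 libraries, after the data were seen. Opposite calls in the 2 tissues make this value large by construction, so it gives the size and error of what picked these genes and no further support. It was −5.65 (SE 0.80, adjusted p 0.00034) on the log2 scale for the dehydrin Sb04g032250, −3.70 (SE 0.57, adjusted p 0.00062) for the sugar carrier protein C and −3.36 (SE 0.51, adjusted p 0.00064) for galactinol synthase 3, whose ABA effect was below the PEG effect in shoots and above it in roots. It was 4.30 (SE 0.61, adjusted p 0.00034) for the iron regulated metal transporter and 4.33 (SE 0.43, adjusted p 7.0e-06) for the sulfate transporter ST1, which went the other way. The shoot calls of the sugar carrier and of galactinol synthase 3 were lost without single shoot libraries, as given with their values. Root and shoot libraries came from the same plants, so the tissues are not separate experiments.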

How the results depend on the processing

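The number of genes called on the difference in shoots was 405 with all 24 libraries in edgeR. It was 158 with the 12 shoot libraries alone, 735 with these and without H2O replicate 2, 1125 with the replicate block, 2012 with the block and without H2O replicate 2, and 722 with DESeq2. It was 393 (126 above, 267 below) with library sizes alone. Without the fold cutoff it was 586 (318 above, 268 below), where the balance of the directions turned from that of the 405 (169 above, 236 below). Leaving out libraries gave 8 to 1918 calls: 8 without replicate 1 in all groups, 35 without replicate 3 and 767 without replicate 2, where each group has 2 libraries, and, for single libraries, 210 without H2O replicate 3, 222 without ABA replicate 1, 266 without NaOH replicate 3 and 1918 without H2O replicate 2. The cause of these shifts was not tested. The control comparison gave 1 call with the block, 4 with the block and without H2O replicate 2, 3 on aligned bases, and 0 to 8 with a library left out. The direct comparison of ABA with PEG gave 1208 calls, 803 with 12 libraries, 1858 with the block and without H2O replicate 2, 2506 (1353 above, 1153 below, against 467 and 741) without a fold cutoff, 1313 (337 above, 976 below) with library sizes alone, and 362 to 1606 with a library or number left out. The root comparison gave 2750 calls, and 1367 (without replicate 1) to 2945 with a library or number left out, with 1538 without replicate 3. The difference changed sign under some setting in 6 of the named genes, none of them called in either fit, with turned values of at most 0.38 in size, and no called difference of a named gene changed sign under any setting run. Of the 71 named genes, 54 were called, and 23 of these lost the call without at least 1 shoot library. Without replicate 1, 52 of the 71 results were weaker, without replicate 3 44, with 12 libraries 28 and with the block 0. The planned promoter motif count was not run. With 3 libraries per group, a smaller difference may go uncalled.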

Other observations

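Some called genes of other kinds, picked out after their values were seen, follow as values. The stress-induced transcription factor NAC1 (Sb01g003710) had normalized reads of 408, 248 and 352 in the NaOH libraries, 631, 495 and 524 with ABA, 449, 289.8 and 365 in the H2O libraries and 1799, 1368 and 2332 with PEG. PEG libraries were above all others, and ABA libraries were above their own controls. The difference was −1.60 (SE 0.41, adjusted p 0.040), lost without any 1 of ABA 1, 2 or 3, H2O 3, NaOH 1 or 3 or PEG 1 or 3 (adjusted p 0.062 to 0.099, differences −1.39 to −1.71). ACC oxidase (Sb09g003800), which makes ethylene, had normalized reads of 466, 342 and 357 in the NaOH libraries, 141, 101 and 97.3 with ABA, 539, 288 and 278 in the H2O libraries and 314, 269.8 and 546 with PEG. Its ABA libraries were below all others, and its difference of −1.82 (SE 0.42, adjusted p 0.026) was lost without any 1 of ABA 2 or 3, H2O 3 or PEG 3 (adjusted p 0.053 to 0.083, differences −1.45 to −1.75).

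The remorin-like gene Sb01g004200, of a family of plasma membrane proteins, rose with both treatments and more with ABA. It had normalized reads of 1539.6, 1472 and 1494 in the NaOH libraries, 10857, 7813 and 7467 with ABA, 1276, 1449 and 1574 in the H2O libraries and 2375, 2972 and 3841 with PEG. The ABA libraries were the highest, PEG libraries came next and the controls were below both, a difference of 1.44 (SE 0.29, adjusted p 0.011). The gene for GRAB2 (Sb02g043270), named for a NAC protein of wheat, fell with PEG. It had normalized reads of 254, 120.0 and 218 in the NaOH libraries, 447, 209 and 264 with ABA, 264, 88.7 and 183 in the H2O libraries and 63.1, 56.6 and 62.4 with PEG. The PEG libraries were below all others, and the difference of 2.19 (SE 0.47, adjusted p 0.017) was lost without ABA 1 (adjusted p 0.053, difference 1.82). Mitogen-activated protein kinase 7 (Sb09g028690) passed for neither treatment alone and differed by 1.20 (SE 0.23, adjusted p 0.0079). Its difference fell just under the cutoff of 1 without H2O 1 (adjusted p 0.017, difference 1.0).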
